A study of Mus musculus with 8 samples.

Results

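The genes described here are 36 mouse transcripts for protein folding and quality control in the endoplasmic reticulum (ER). They were chosen by name as ER chaperones and genes of the unfolded protein response, by a rule that uses no expression value, though with earlier results of these data known. They are 36 of the 19896 genes listed in both deposited tables, and all 36 passed the filter on low values in each knockdown. Poly(A) RNA of E14 cells, a mouse embryonic stem cell line, was read in 8 RNA-seq libraries, with 2 libraries for each of 4 groups. Cct7 KD cells held an inducible short hairpin RNA against Cct7, and Cct7 KD Ctr cells held the pLKO Tet-on vector with puromycin resistance alone. Cct5 KD cells held a hairpin against Cct5 in the same vector, and Cct5 KD Ctr cells again the vector alone. All 4 groups, controls included, had gone through 14 days of puromycin (0.5 µg/ml) and 2 days of doxycycline (2 µg/ml) in medium with serum and LIF. Cct5 and Cct7 encode subunits of CCT, the cytosolic chaperonin that folds actin, tubulin and other proteins, and the series asked whether these subunits hold embryonic stem cells back from a totipotent-like state. Positive clones were picked from each infection, and neither the number of clones nor whether libraries came from separate cultures is given, so p-values measure only the spread between these libraries, which may be technical.

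The ER is where secreted and membrane proteins enter the secretory route, fold, gain disulfide bonds and sugars, and are checked. When unfolded proteins build up there, sensors in the ER membrane start the unfolded protein response: IRE1 (gene Ern1) splices the Xbp1 mRNA into the form that encodes an active transcription factor, ATF6 is carried to the Golgi and cleaved to release another, and PERK slows translation and favours ATF4 and CHOP (gene Ddit3). XBP1 and cleaved ATF6 raise transcription of ER chaperones and of ER-associated degradation (ERAD), which returns misfolded proteins to the cytosol for the proteasome. BiP (gene Hspa5) binds both unfolded chains and the resting sensors. Mouse embryos without Hspa5 die around implantation. Gene-level values do not separate spliced from unspliced Xbp1 mRNA, nor cleaved from whole ATF6, so activity of the sensors themselves was not measured.

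ATF6 acts together with NF-Y at the ER stress response element (ERSE), which is CCAAT, then any 9 bases, then CCACG; NF-Y reads CCAAT, and ATF6 or XBP1 reads CCACG. A shorter form, ERSE-II, is ATTGG, then any 1 base, then CCACG. RefSeq start-site windows of GRCm38.p6, running from 250 bases before to 50 after the annotated start, were found for 29 of the 36 genes (30 windows). Hyou1, Atf6, Manf, Derl1, Erlec1, Sec61a1 and Ssr2 were not matched. Searched on both strands, ERSE was in 9 of the 30 windows (30.0%), against 0.119% of the 32851 windows of all genes, and ERSE-II in 2, against 0.0365%. The short CCACG, which lies inside both elements, was in 25 of the 30 windows and in 32.8% of all windows. The letters TGACGTGG, the core of the element named UPRE, were in none of the 30 windows and in 0.676% of all. Only these exact letters were searched, and the Hspa5 window holds TGACGTGA, which differs in the last base. The 36 genes were chosen by name as genes of the unfolded protein response, so their larger share of ERSE and ERSE-II is not a separate result. A match describes letters in the window and shows neither binding nor use. The ERSE matches are shown with 5 bases on each side, because a gene with a rise as large as that of Dnajc3 and one with a fall as large as that of Derl3 both hold one. They are ordered from the largest rise to the largest fall in Cct7 KD and read 5′ to 3′ along the gene's strand, with the fixed letters in capitals. Where the element lies on the opposite strand it reads CGTGG first.
Dnajc3 (chr14:118937822-118937850, + strand): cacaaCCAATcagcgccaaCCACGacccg
Calr (chr8:84847070-84847098, - strand): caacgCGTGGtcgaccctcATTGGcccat
Hspa5 (chr2:34772020-34772048, + strand): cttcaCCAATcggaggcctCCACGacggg
Syvn1 (chr19:6046527-6046555, + strand): cgcaaCCAATcggcggtagCCACGggaac
Creld2 (chr15:88819515-88819543, + strand): cttctCGTGGcgagcctcaATTGGtccac
Hsp90b1 (chr10:86705633-86705661, - strand): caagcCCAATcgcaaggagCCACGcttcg
Hsp90b1 (chr10:86705528-86705556, - strand): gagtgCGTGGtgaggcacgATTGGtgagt
Pdia6 (chr12:17266486-17266514, + strand): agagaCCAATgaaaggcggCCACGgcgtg
Canx (chr11:50325795-50325823, - strand): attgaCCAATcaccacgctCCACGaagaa
Derl3 (chr10:75893237-75893265, + strand): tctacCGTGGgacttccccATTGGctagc
The fixed letters are the same in all 10 matches because the search required them, and the 9 bases between them differ from gene to gene. Hsp90b1 holds 2 of the 10, in opposite orientations. The matches begin between 44 bases (Syvn1) and 212 bases (Hsp90b1) before the start. ERSE-II stood in the windows of Herpud1, beginning 52 bases before the start, and of Dnajb11, beginning 8 bases after it.
Herpud1 (chr8:94386372-94386392, + strand): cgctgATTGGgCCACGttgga
Dnajb11 (chr16:22857847-22857867, + strand): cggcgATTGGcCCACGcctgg
The 250 bases before the start are shown for 3 genes, with the whole element in capitals: Herpud1 rose most in Cct7 KD, Hspa5 encodes the chaperone that marks the response, and Hsp90b1 holds 2 elements.
Herpud1 (chr8:94386179-94386428, + strand): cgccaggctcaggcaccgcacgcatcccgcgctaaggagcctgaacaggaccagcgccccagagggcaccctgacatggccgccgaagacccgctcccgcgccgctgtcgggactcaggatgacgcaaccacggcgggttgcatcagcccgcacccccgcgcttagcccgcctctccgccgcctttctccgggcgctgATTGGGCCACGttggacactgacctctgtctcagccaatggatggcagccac
Hspa5 (chr2:34771840-34772089, + strand): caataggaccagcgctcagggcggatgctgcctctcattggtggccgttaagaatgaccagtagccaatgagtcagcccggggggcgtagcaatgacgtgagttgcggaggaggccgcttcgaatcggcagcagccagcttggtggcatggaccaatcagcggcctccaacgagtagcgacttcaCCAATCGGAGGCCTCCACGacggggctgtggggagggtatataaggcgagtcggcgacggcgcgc
Hsp90b1 (chr10:86705445-86705694, - strand): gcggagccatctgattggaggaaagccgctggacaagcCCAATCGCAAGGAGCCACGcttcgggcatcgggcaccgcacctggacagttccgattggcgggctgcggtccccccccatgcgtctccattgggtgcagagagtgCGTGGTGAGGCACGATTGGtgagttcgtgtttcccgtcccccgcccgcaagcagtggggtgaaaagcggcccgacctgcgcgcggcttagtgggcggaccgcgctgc

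Estimated from the steps in the FPKM values, depth was 20.8 and 18.8 M fragments (M, 10 to the power of 6) in Cct7 KD and 22.3 and 23.4 M in Cct7 KD Ctr. For Cct5 KD no depth could be had, and Cct5 KD Ctr had 54.7 and 21.2 M. The targeted transcripts were read against the labels. Cct7 was at 14.4 and 17.8 FPKM in Cct7 KD, and at 269 and 280.1 in its control. Cct5 was at 70.8 and 73.4 FPKM in Cct5 KD, and at 368 and 367 in its control. In Cct7 KD, Cct5 changed by -0.38 and Cct7 by -4.02 (log2, deposited FPKM). In Cct5 KD, Cct7 rose on deposited FPKM but stood at -0.72 after median-of-ratios scaling. These levels alone do not establish the Cct5 KD labels, for the reason that follows. The Cct5 KD libraries were not independent of the Cct7 KD libraries. In each, the most common ratio of Cct5 KD to Cct7 KD at the same replicate number was 1.125, met exactly by 449 and 427 genes with values below it in only 15. Outside those 15 genes, each Cct5 KD library can be written as 1.125 times a Cct7 KD library plus a remainder, which holds 28.7% of its FPKM. The targeted transcripts stand apart. Cct5 does not follow this relation, since it changed by only -0.38 in Cct7 KD but stood far below its control in Cct5 KD. Little of the Cct7 level in Cct5 KD can come from the multiple, since Cct7 was at 14.4 and 17.8 FPKM in Cct7 KD. The remainder is given beside each Cct5 KD result on the 36 genes; it rests on the ratio found in the values and on no statement of the labels. Summed FPKM was 745912 and 744177 in Cct5 KD, against 495553 and 496684 in its control, while Cct7 KD stood at 472868 and 471748 against 490071 and 496748. Deposited values were used unscaled, and values rescaled by the median of ratios are given beside them: the median change of all genes tested was 0.15 deposited and -0.07 rescaled in Cct7 KD, and 0.68 deposited and -0.05 rescaled in Cct5 KD (log2). Other transcripts also separated knockdown from control. Hprt, which neither hairpin targeted, was at 1.12 and 0.781 FPKM in Cct7 KD, against 161 in both its controls. It was at 1.44 and 1.13 in Cct5 KD, against 163 and 159. For Hprt, and for the ER genes, an effect of the hairpin cannot be told apart from a difference between clones, which was not tested. All 5 markers of pluripotent cells fell in Cct7 KD, with summed levels of 391 to 396 FPKM in Cct7 KD against 1728 to 1769 in its control. Of 5 trophoblast markers tested 4 rose and 1 fell, with the 7 listed summing to 252 to 259.9 against 37.7 to 40.8 FPKM. Of 7 endoderm markers tested 5 rose and 2 fell, and the 12 listed summed to 337 to 344 against 268 to 269.8 FPKM. The 3 feeder markers listed summed to 6.42 to 6.51 against 8.89 to 9.55 FPKM. Cdx2 of the trophoblast set and Col3a1, Postn and Lum of the feeder set were not listed for both knockdowns. Of the listed markers none was at 0 in all libraries, but 4 endoderm, 2 trophoblast and 1 feeder marker were at most 1 FPKM in every library. After rescaling, 3 trophoblast markers were higher and 1 lower in Cct7 KD, and 3 endoderm markers higher and 2 lower. Of all genes there, 49.3% were higher and 32.0% lower as deposited, and 37.1% and 44.0% after rescaling. In the remainder all 5 pluripotent markers were lower. Of 3 trophoblast markers tested in the remainder 1 was higher and 2 lower, and of 6 endoderm markers 1 was higher and 4 lower, beside 41.6% and 43.3% of all genes. The part of these shifts in the results on ER genes was not tested. In bulk RNA, fewer cells of a type and less RNA per cell cannot be told apart.

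In Cct7 KD most ER genes were higher, and the rises were largest for a few genes of ERAD and of the BiP cycle. Of the 36 transcripts 24 rose, 6 fell and 6 did not pass the test (limma on log2(FPKM + 1), adjusted p under 0.05). The shares were 66.7% higher and 16.7% lower, beside 49.3% higher and 32.0% lower among all 13588 genes tested. The median change was 0.38 on the log2 scale, against 0.15 for all genes. After median-of-ratios rescaling 18 were higher, 13 lower and 5 not called, beside 37.1% higher and 44.0% lower of all genes, with medians of 0.14 for the 36 and -0.07 for all. Past a fold of 2 on the log2(FPKM + 1) scale were 5 rises (Herpud1, Dnajc3, Os9, Sel1l and Calr) and no fall, 13.9% of the 36, beside 13.5% higher and 6.60% lower of all genes: that share is close to the background. After rescaling the same fold was passed by 2 rises (Dnajc3 and Herpud1) and 1 fall (Derl3), beside 9.56% higher and 10.4% lower of all genes. Together the 36 transcripts held 0.703% and 0.696% of all FPKM in the Cct7 KD libraries and 0.515% and 0.52% in their controls, a share that does not depend on scaling. Replicates lay close together, with a median coefficient of variation of 2.00% in Cct7 KD and 2.70% in its control over the 36 genes.

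**Figure D1:**
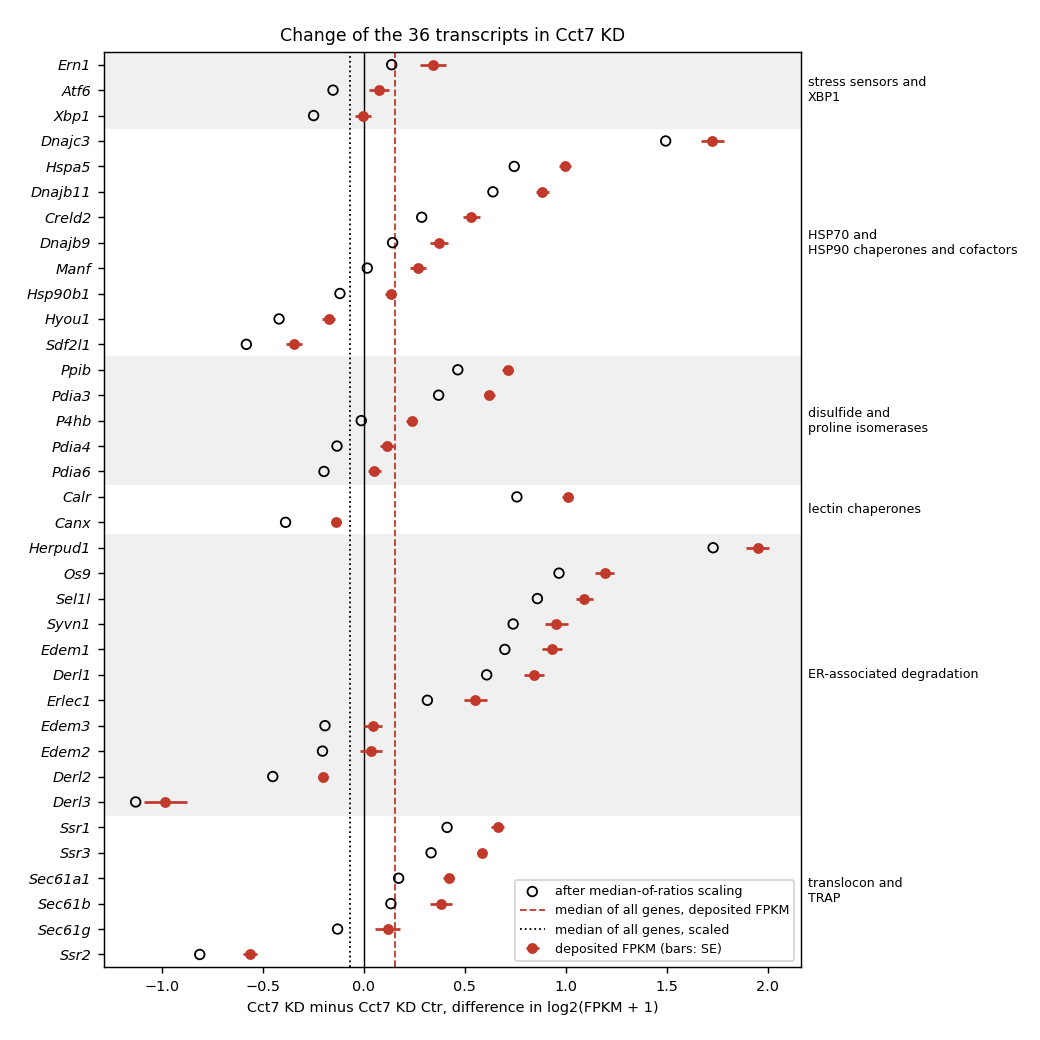
Change of each of the 36 transcripts in Cct7 KD, as Cct7 KD minus Cct7 KD Ctr in log2(FPKM + 1). Filled points with bars are the deposited FPKM with the standard error (2 libraries per group), open circles the values after median-of-ratios scaling, and vertical lines the medians of all genes tested (0.15 deposited, -0.07 scaled). Herpud1 (1.95) and Dnajc3 (1.73) lie farthest to the right and Derl3 (-0.98) farthest to the left.

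Among the sensors and XBP1, 1 of 3 passed the test, with a median of 0.07 (0 higher and 2 lower after rescaling). For this and the roles that follow, the shares of all genes were 49.3% higher and 32.0% lower as deposited, and 37.1% and 44.0% after rescaling. Ern1, which encodes the sensor IRE1, had 4.88 and 5.22 FPKM in Cct7 KD and 3.77 in each control library. Both knockdown libraries were above both controls, with a rise of 0.34 (SE 0.063, adjusted p = 0.0036 by limma), and the value after rescaling was 0.14 (adjusted p = 0.084). Atf6 had 9.61 and 9.89 FPKM in Cct7 KD and 8.93 and 9.49 in its control, a difference of 0.07 (SE 0.050, adjusted p = 0.22), which became -0.15 after rescaling (adjusted p = 0.033). Xbp1 had 30.4 and 28.7 FPKM in Cct7 KD and 29.2 and 30.04 in its control. The groups of Xbp1 overlapped and differed by -0.01 (SE 0.039, adjusted p = 0.90), and after rescaling the value was -0.25 (adjusted p = 0.0026). The level of Herpud1 relative to Xbp1, which scaling leaves untouched, was 0.592 and 0.638 in Cct7 KD against 0.128 and 0.138 in its control.

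The HSP70 and HSP90 chaperones of the ER and their cofactors did not move together: 7 of 9 rose and 2 fell, with a median of 0.37 (5 higher and 3 lower after rescaling). Hspa5, the gene of BiP (ENSMUSG00000026864, chromosome 2, 34771970 to 34777547 on GRCm38), had 235 and 228 FPKM in Cct7 KD and 114 and 117 in its control. Its mean was 231.6 ± 5.35 FPKM in Cct7 KD and 115.7 ± 2.32 in Cct7 KD Ctr (SD, n = 2 each), 2.00 times as high, with a rise of 1.00 (SE 0.030, adjusted p = 4.9e-06 by limma) and 0.74 after rescaling. Dnajc3, a DnaJ cochaperone of BiP that is also known as p58IPK, an inhibitor of eIF2α kinases (ENSMUSG00000022136, chromosome 14, 118937976 to 118981697), had 25.7 and 25.3 FPKM in Cct7 KD and 7.41 and 6.63 in its control. It rose by 1.73 (SE 0.057, adjusted p = 5.9e-06) and by 1.50 after rescaling. Dnajb11, another DnaJ cochaperone, rose by 0.88, Creld2 by 0.53 and Dnajb9, which helps BiP hold IRE1 inactive, by 0.37, and all 3 remained called higher after rescaling. Manf, a secreted ER stress protein, rose by 0.27 but stood at 0.02 after rescaling (adjusted p = 0.73).

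Hsp90b1, the gene of the ER HSP90 named GRP94, had 279 and 275 FPKM in Cct7 KD and 249 and 256 in its control. The groups did not overlap, yet the rise was 0.13 (SE 0.028, adjusted p = 0.0062 by limma) and turned to a fall of -0.12 after rescaling (adjusted p = 0.014). The ratio of Hspa5 to Hsp90b1 within a library, on the per-length FPKM scale, was 0.842 and 0.829 in Cct7 KD against 0.457 and 0.458 in its control. Hyou1, the nucleotide exchange factor GRP170 of BiP, had 46.4 and 47.8 FPKM in Cct7 KD and 54.1 and 52.4 in its control. It fell by 0.17 (SE 0.032, adjusted p = 0.0035), with -0.42 after rescaling. Sdf2l1, which works with the DnaJ cofactors of BiP, had 13.7 FPKM in both Cct7 KD libraries and 17.3 and 18.2 in its control, and fell by 0.35 (SE 0.041, adjusted p = 0.00055), with -0.58 after rescaling. The BiP gene and these 2 cofactors changed in opposite directions within the same libraries.

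Of the disulfide and proline isomerases, 4 of 5 rose and Pdia6 did not pass the test, with a median of 0.24 (2 higher and 2 lower after rescaling). Ppib, an ER cyclophilin, rose by 0.71 (59.7 and 58.8 FPKM in Cct7 KD, 35.9 and 35.7 in its control), and Pdia3, the isomerase that works with the lectin chaperones, by 0.62 (223 and 225 against 143 and 147). Both were also higher after rescaling, at 0.47 and 0.37. P4hb, the protein disulfide isomerase itself, rose by 0.24 and stood at -0.01 after rescaling (adjusted p = 0.67). Pdia4 rose by 0.11 (adjusted p = 0.023 by limma), turned to -0.13 after rescaling (adjusted p = 0.018), and lost its call without Cct7 KD 1 (0.08, adjusted p = 0.12) or without Cct7 KD Ctr 1 (0.10, adjusted p = 0.081). Pdia6 was at 0.05 (adjusted p = 0.21) and at -0.20 after rescaling (adjusted p = 0.0038); it passed the test on deposited values without Cct7 KD Ctr 2 (0.09, adjusted p = 0.049).

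The lectin chaperones calreticulin and calnexin bind the same sugar signal on newly made glycoproteins, the one soluble in the ER lumen and the other in its membrane, and their transcripts went opposite ways. Calr (ENSMUSG00000003814, chromosome 8, 84841850 to 84846934) had 462 and 453 FPKM in Cct7 KD and 224 and 229.6 in its control, a rise of 1.01 (SE 0.028, adjusted p = 3.9e-06 by limma) and of 0.76 after rescaling. Canx had 248 and 243 FPKM in Cct7 KD and 272 and 269 in its control, a fall of 0.14 (SE 0.026, adjusted p = 0.0041), with -0.39 after rescaling. Calr was the most abundant of the 36 transcripts in Cct7 KD and Canx the most abundant in its control. The ratio of Calr to Canx within a library was 1.86 in both Cct7 KD libraries, against 0.824 and 0.854 in Cct7 KD Ctr.

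**Figure D2:**
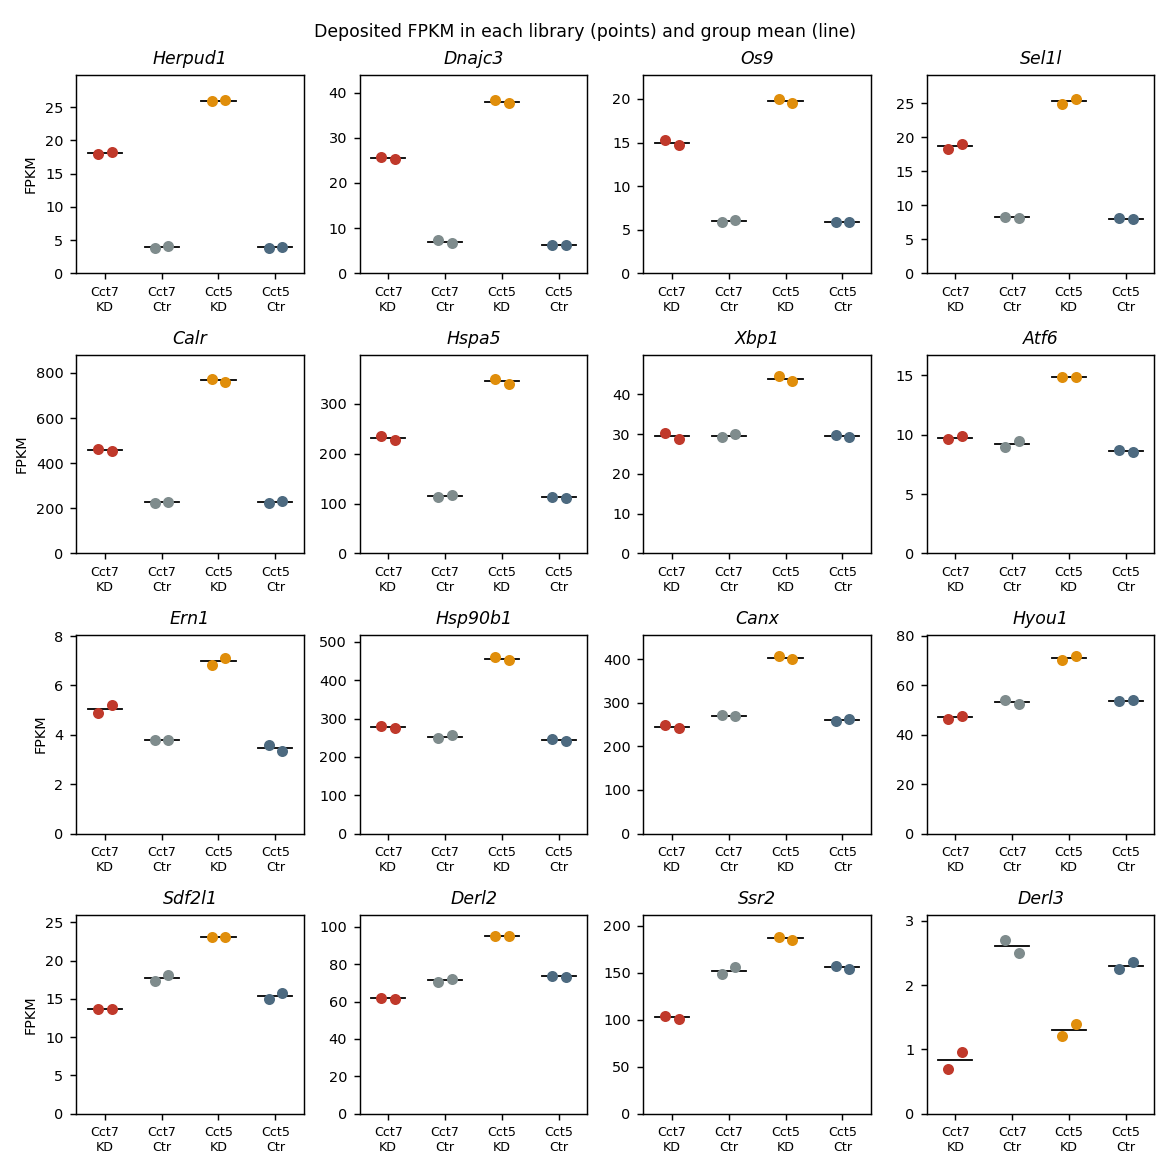
Deposited FPKM in each of the 8 libraries for 16 of the 36 transcripts: points are libraries, lines the mean of the 2 libraries of a group, and each panel has its own linear axis from 0. Herpud1, Dnajc3, Os9, Sel1l, Calr and Hspa5 are higher in Cct7 KD than in its control, Xbp1 overlaps, and Canx, Hyou1, Sdf2l1, Derl2 and Ssr2 are lower in Cct7 KD but higher in Cct5 KD, whose libraries carry more FPKM in all.

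ERAD held the largest rise and the largest fall. Of its 11 genes 7 rose, 2 fell and Edem2 and Edem3 did not pass the test, with a median of 0.84 and, after rescaling, 7 rises and 4 falls. Herpud1, which encodes the membrane protein HERP of the ERAD complex (ENSMUSG00000031770, chromosome 8, 94386438 to 94395377), had 18.0 and 18.3 FPKM in Cct7 KD and 3.76 and 4.15 in its control. Its mean was 18.1 ± 0.24 FPKM in Cct7 KD and 3.96 ± 0.28 in Cct7 KD Ctr (SD, n = 2 each), 4.59 times as high in FPKM, with a rise of 1.95 (SE 0.057, adjusted p = 4.4e-06 by limma) and 1.73 after rescaling. Os9, a lectin that brings trimmed glycoproteins to the ubiquitin ligase (ENSMUSG00000040462, chromosome 10, 127095650 to 127121131), had 15.2 and 14.8 FPKM in Cct7 KD and 5.87 and 6.12 in its control, and rose by 1.19 (SE 0.047, adjusted p = 9.9e-06). Sel1l, the adaptor of that ligase (ENSMUSG00000020964, chromosome 12, 91806043 to 91849157), had 18.3 and 19.02 FPKM in Cct7 KD and 8.33 and 8.12 in its control, and rose by 1.09 (SE 0.043, adjusted p = 9.6e-06). After rescaling the rises of Os9 and Sel1l were 0.97 and 0.86. Syvn1, the ligase HRD1 itself, rose by 0.95, so that the ligase, its adaptor, its lectin and HERP were all higher.

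The paralogs among the ERAD genes differed from each other. Edem1, which hands glycoproteins to ERAD after mannose trimming, rose by 0.93 (17.1 and 18.05 FPKM in Cct7 KD, 8.51 and 8.97 in its control). Edem2 and Edem3, whose products trim mannose, were at 0.035 and 0.045 and did not pass the test on deposited values. After rescaling both were called lower, at -0.21 and -0.19 (adjusted p = 0.012 for each by limma). The ratio of Edem1 to Edem3 was 0.920 and 1.03 in Cct7 KD against 0.478 and 0.526 in its control. Derl1, a membrane protein of the exit route, rose by 0.84 (18.2 and 19.4 FPKM in Cct7 KD, 9.83 and 10.2 in its control), and Erlec1, the other lectin, by 0.55. Derl2, a paralog of Derl1, had 62.2 and 61.4 FPKM in Cct7 KD and 70.7 and 71.9 in its control and fell by 0.20 (SE 0.026, adjusted p = 0.00079 by limma). Derl3 (ENSMUSG00000009092, chromosome 10, 75893413 to 75895941), the third paralog and the least abundant of the 36, had 0.692 and 0.962 FPKM in Cct7 KD and 2.71 and 2.50 in its control. It fell by 0.98 (SE 0.10, adjusted p = 0.00037), an understated size since the added 1 FPKM is as large as the level in Cct7 KD; 1 fragment on a transcript of 1 kb equals 0.0481 and 0.0531 FPKM in the Cct7 KD libraries. After rescaling Derl2 was at -0.45 and Derl3 at -1.13. With a mean of 0.83 FPKM in Cct7 KD and 2.60 in its control, Derl3 passed the filter of 1 FPKM only through its control.

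The translocon SEC61 threads new chains into the ER, and the TRAP complex (genes Ssr1, Ssr2 and Ssr3 here) sits beside it. Of these 6 genes 4 rose, Ssr2 fell and Sec61g did not pass the test, with a median of 0.40 (3 higher and 1 lower after rescaling). Within TRAP, Ssr1 rose by 0.66 (189 FPKM in both Cct7 KD libraries, 116 and 122 in its control) and Ssr3 by 0.58 (146 and 144 against 96.8 and 96.6). Ssr2 (ENSMUSG00000041355, chromosome 3, 88575876 to 88588419) had 104 and 101 FPKM in Cct7 KD and 148 and 155 in its control, and fell by 0.56 (SE 0.033, adjusted p = 3.6e-05 by limma), with -0.81 after rescaling. The ratio of Ssr1 to Ssr2 was 1.82 and 1.87 in Cct7 KD against 0.783 and 0.782 in its control, so the transcripts of 2 subunits of the same complex separated. Sec61a1, the channel subunit, rose by 0.42 and Sec61b by 0.38. After rescaling Sec61a1 was at 0.17 and Sec61b lost its call (0.13, adjusted p = 0.069 by limma). Sec61g was at 0.12 (adjusted p = 0.12) and passed the test only without Cct7 KD 2 (0.19, adjusted p = 0.038), among the fits that leave out a library.

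The 9 genes with an ERSE in the window spanned nearly the whole range of change in Cct7 KD. Of them 6 rose (Calr, Creld2, Dnajc3, Hsp90b1, Hspa5 and Syvn1), 2 fell (Canx and Derl3) and Pdia6 did not pass the test, beside 49.3% higher and 32.0% lower of all genes. After rescaling 5 were higher and 4 lower, beside 37.1% and 44.0%. Hsp90b1, whose window holds 2 of the elements printed above, was among the 4. The 2 genes with ERSE-II, Herpud1 and Dnajb11, rose by 1.95 and 0.88. Os9 and Sel1l rose by more than 1 with neither element in the window searched.

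In Cct5 KD the deposited values put nearly all ER genes higher, as they did most genes. Of the 36, 35 rose and Derl3 alone fell (97.2% higher, beside 78.0% higher and 11.3% lower of all 14179 genes tested), and 17 passed a fold of 2 (47.2%, beside 31.2% higher and 2.17% lower). After rescaling 3 passed that fold, Dnajc3 and Herpud1 higher and Derl3 lower, beside 8.78% higher and 8.92% lower of all genes. The median change was 0.94, against 0.68 for all genes. After rescaling 21 were higher and 10 lower, beside 37.7% and 43.7% of all genes, with medians of 0.15 and -0.05. In the remainder, which leaves out the multiple of the Cct7 KD values, 25 were higher and 6 lower than in Cct5 KD Ctr (69.4% and 16.7%, beside 41.6% and 43.3% of all 11701 genes tested), with medians of 0.36 and -0.01. The share of all FPKM held by the 36 was 0.697% and 0.692% in Cct5 KD, against 0.508% and 0.507% in Cct5 KD Ctr, and 0.682% in both remainders. No gene of the 36 had a negative remainder, and the remainder made up 14.6% (Os9) to 38.2% (Ssr2) of the Cct5 KD value, with a median of 24.5%.

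**Figure D3:**
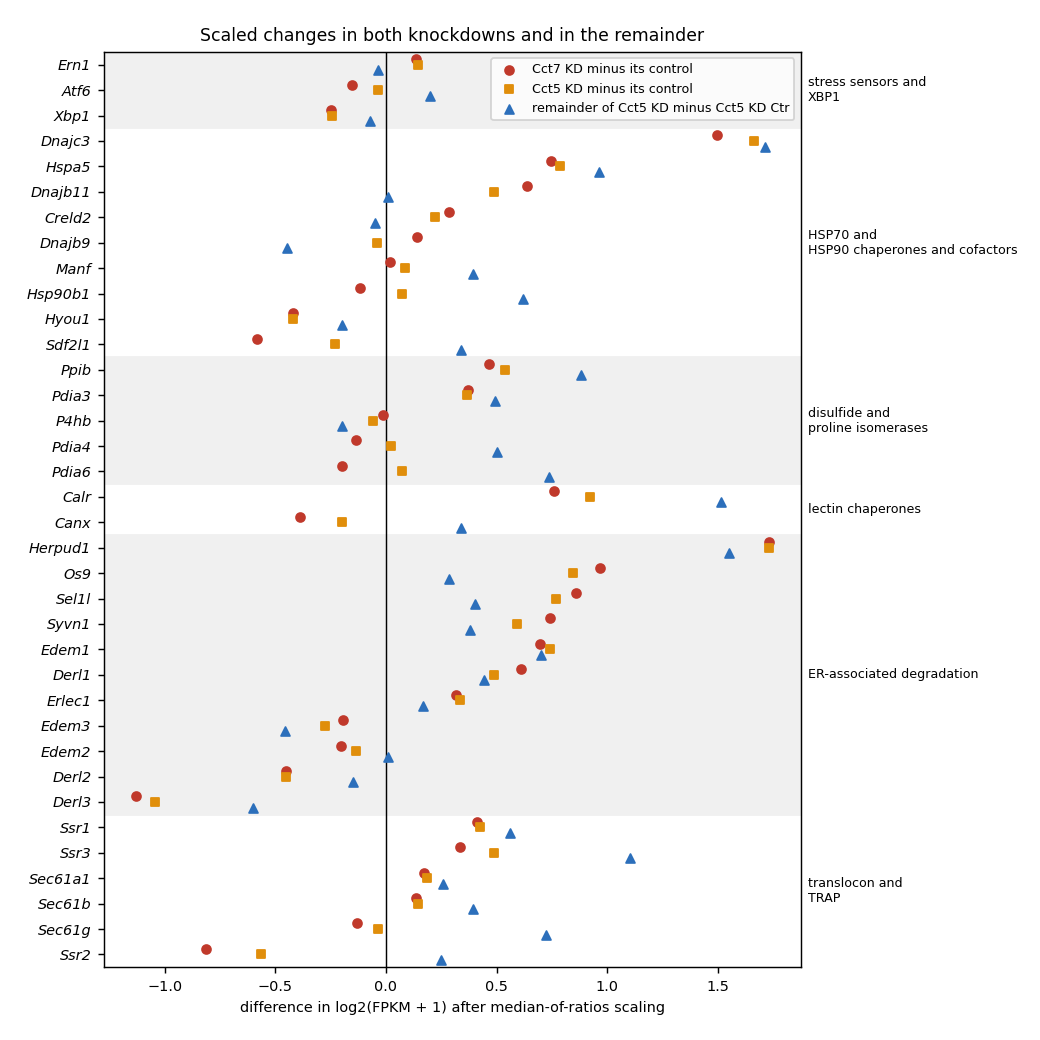
Scaled change of the 36 transcripts in Cct7 KD (circles), Cct5 KD (squares) and the remainder of Cct5 KD (triangles), each minus its own control in log2(FPKM + 1) after median-of-ratios scaling. Dnajc3, Herpud1, Calr and Hspa5 lie to the right of 0 for all 3 symbols and Derl3 to the left, while Ssr2, Sdf2l1 and Canx are negative in both knockdowns and positive in the remainder.

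Herpud1, Dnajc3 and Calr had the largest deposited rises of the 36 in Cct5 KD. Herpud1 had 25.9 and 26.1 FPKM in Cct5 KD and 3.76 and 4.01 in its control, a rise of 2.47 (SE 0.044, adjusted p = 4.1e-07 by limma), with 1.73 after rescaling and 1.55 in the remainder. Dnajc3 had 38.4 and 37.6 FPKM in Cct5 KD and 6.29 and 6.21 in its control, a rise of 2.43 (SE 0.034, adjusted p = 2.9e-07), with 1.66 after rescaling and 1.71 in the remainder. Calr had 774 and 759.9 FPKM in Cct5 KD and 224 and 232 in its control, a rise of 1.75 (SE 0.025, adjusted p = 3.0e-07), with 0.92 after rescaling and 1.52 in the remainder. Hspa5, the BiP gene, had 350.5 and 340.3 FPKM in Cct5 KD and 114 and 111 in its control, a rise of 1.61 (SE 0.025, adjusted p = 3.3e-07), with 0.79 after rescaling and 0.96 in the remainder. All knockdown libraries of these 4 genes lay above all controls. Ssr3, the TRAP subunit, stood at 1.10 in the remainder, the only other one of the 36 past a fold of 2 there besides Calr, Dnajc3 and Herpud1 (4 of the 36 and no fall, beside 8.27% higher and 9.32% lower of all genes).

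Other genes had smaller values in the remainder, itself rescaled, than in rescaled Cct5 KD. Dnajb11 was at 1.29 in Cct5 KD as deposited, 0.49 after rescaling and 0.01 in the remainder (adjusted p = 0.80 by limma). Dnajb9 was at 0.73 as deposited, -0.04 after rescaling and -0.45 in the remainder (adjusted p = 0.00024). Os9 was at 1.60, 0.85 and 0.29 on the same 3 scales, and Creld2 at 1.03, 0.22 and -0.05. The reverse held for Hsp90b1, which had 460.2 and 453 FPKM in Cct5 KD and 247 and 242 in its control and was at 0.90 as deposited, 0.07 after rescaling and 0.62 in the remainder, and for Pdia6, at 0.90, 0.07 and 0.73. Ern1, Atf6 and Xbp1 rose as deposited, with smaller or negative values after rescaling and in the remainder. Of these, Xbp1 was called lower after rescaling (adjusted p = 0.00063 by limma) and Atf6 was called higher in the remainder. Ern1 had 6.82 and 7.13 FPKM in Cct5 KD and 3.60 and 3.35 in its control, a rise of 0.83 (adjusted p = 3.6e-05), with 0.15 after rescaling and -0.04 in the remainder. Atf6 had 14.8 and 14.9 FPKM in Cct5 KD and 8.68 and 8.54 in its control, a rise of 0.72 (adjusted p = 9.5e-06), with -0.04 after rescaling and 0.20 in the remainder. Xbp1 had 44.6 and 43.3 FPKM in Cct5 KD and 29.7 and 29.2 in its control, a deposited rise of 0.56, with -0.24 after rescaling and -0.07 in the remainder.

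By role, the remainder was higher than Cct5 KD Ctr in all 6 translocon and TRAP genes (median 0.48), in both lectin chaperones, in 4 of 5 isomerases (P4hb lower), in 7 of 11 ERAD genes (median 0.29, 3 lower), in 5 of 9 HSP70 and HSP90 chaperones and cofactors (2 lower) and in 1 of 3 of the group of sensors and XBP1, beside 41.6% higher and 43.3% lower of all genes. In rescaled Cct5 KD the count higher was 4 of 6 for translocon and TRAP (Ssr2 lower), 7 of 11 for ERAD (4 lower) and 6 of 9 for the HSP70 and HSP90 group (2 lower), beside 37.7% higher and 43.7% lower of all genes. The ERAD ligase genes again stood high in Cct5 KD as deposited: Os9 had 20.02 and 19.5 FPKM in Cct5 KD and 5.88 and 5.83 in its control, and Sel1l had 24.9 and 25.7 FPKM in Cct5 KD and 8.08 and 7.99 in its control. Both were also higher in the remainder, at 0.29 (adjusted p = 0.00098 by limma) for Os9 and 0.40 (adjusted p = 0.00012) for Sel1l.

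Of the 6 genes that fell in Cct7 KD, Derl3 alone fell in Cct5 KD on deposited values. Derl3 had 1.21 and 1.40 FPKM in Cct5 KD and 2.25 and 2.35 in its control, a fall of 0.52 (SE 0.082, adjusted p = 0.0014 by limma), with -1.04 after rescaling and -0.60 in the remainder. Canx, the calnexin gene, had 407 and 401 FPKM in Cct5 KD and 259.5 and 263 in its control, a deposited rise of 0.63, a rescaled fall of -0.20 and a rise of 0.34 in the remainder. Ssr2, the TRAP subunit, had 188 and 185 FPKM in Cct5 KD and 158 and 153 in its control, a deposited rise of 0.26, a rescaled fall of -0.56 and a rise of 0.25 in the remainder. Their deposited rises were smaller than the median of all genes, 0.68. Hyou1 had 70.1 and 71.8 FPKM in Cct5 KD and 53.7 and 53.9 in its control, Sdf2l1 had 23.1 FPKM in both Cct5 KD libraries and 15.02 and 15.8 in their controls, and Derl2 had 94.96 and 95.01 FPKM in Cct5 KD and 73.8 and 73.2 in its control. Of these 3, Hyou1 and Derl2 were lower in the remainder (-0.20 and -0.15) and Sdf2l1 higher (0.34).

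The ratios within a library, free of scaling, were close in the controls and shifted in each knockdown. Calr to Canx was 1.90 and 1.89 in Cct5 KD against 0.862 and 0.882 in Cct5 KD Ctr, and 1.99 and 1.96 in the remainders. Hspa5 to Hsp90b1 was 0.762 and 0.752 in Cct5 KD against 0.461 and 0.458 in its control, and 0.588 and 0.585 in the remainders. Ssr1 to Ssr2 was 1.48 and 1.52 in Cct5 KD against 0.757 and 0.744 in its control, and 0.912 and 0.956 in the remainders. These pairs were chosen after their values were seen. The controls of the 2 knockdowns differed little, by -0.19 (Sdf2l1) to 0.16 (Sec61g) over the 36 genes with a median of -0.03, as Cct5 KD Ctr minus Cct7 KD Ctr in log2(FPKM + 1).

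Calls that held in direction on deposited values, after median-of-ratios rescaling and at a common total numbered 18 rises and 6 falls in Cct7 KD, with 12 genes called in neither way throughout, beside 37.2% higher and 29.4% lower of the 13517 genes tested on all 3 scales. Holding also in Cct5 KD and its remainder were 15 rises (Hspa5, Dnajc3, Pdia3, Ppib, Calr, Edem1, Syvn1, Sel1l, Derl1, Herpud1, Os9, Erlec1, Sec61a1, Ssr1 and Ssr3) and 1 fall (Derl3), beside 22.4% higher and 11.7% lower of the 11653 genes tested in all these fits. These 15 hold BiP, the lectin calreticulin and the HRD1 ligase with its adaptor and lectins, and of the sensors none. Derl3 passed the filter in Cct7 KD only through its control.

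**Figure D4:**
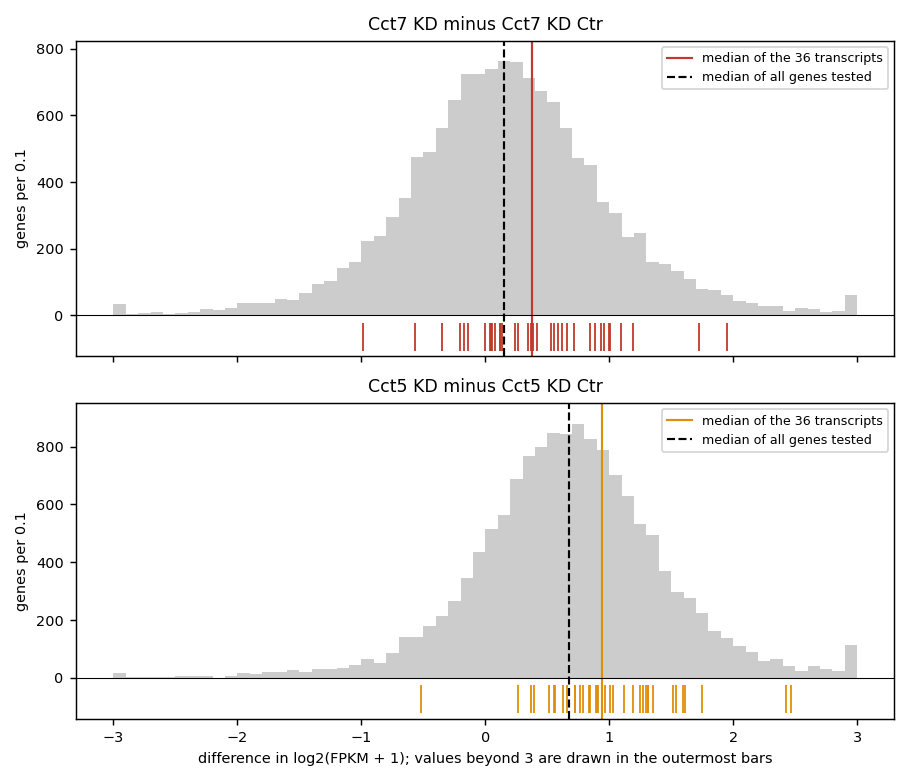
Distribution of the change over all genes tested (grey bars, genes per 0.1 of log2) in Cct7 KD (top) and Cct5 KD (bottom), each minus its control in log2(FPKM + 1) on deposited FPKM, with the 36 transcripts as ticks below. The medians of the 36 (solid lines, 0.38 and 0.94) lie right of those of all genes (dashed lines, 0.15 and 0.68), and the distribution of Cct5 KD lies farther right than that of Cct7 KD.

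The other genes of the pathway were read from 7 lists in Cct7 KD. The list with the highest median was the PERK branch and the integrated stress response, in which 11 of 12 rose, none fell and the median was 1.09 (9 higher and 1 lower after rescaling, median 0.88). For this and the lists that follow, the shares of all genes were 49.3% higher and 32.0% lower as deposited, and 37.1% and 44.0% after rescaling. Ddit3, the gene of the transcription factor CHOP, had 34.0 and 34.1 FPKM in Cct7 KD and 4.12 and 4.00 in its control, a rise of 2.79 (SE 0.040, adjusted p = 1.2e-06 by limma). Atf3, a stress-induced transcription factor, had 13.03 and 13.9 FPKM in Cct7 KD and 0.939 and 0.608 in its control, a rise of 3.03 (SE 0.11, adjusted p = 6.8e-06 by limma). Atf3 passed the filter of 1 FPKM only through the Cct7 KD libraries. Chac1, an enzyme that degrades glutathione, had 10.4 FPKM in both Cct7 KD libraries and 1.23 and 1.39 in its control, a rise of 2.30. In Cct5 KD all 12 rose, beside 78.0% of all genes, with 9 higher and 2 lower after rescaling (37.7% and 43.7% of all genes) and 8 of 11 tested higher and 2 lower in the remainder (41.6% and 43.3%). Ddit3 was at 73.1 and 72.02 FPKM against 3.37 and 2.96 in its control, a rise of 4.14, with 4.25 in the remainder. The integrated stress response also answers stresses outside the ER.

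Oxidative folding, the making of disulfide bonds, rose in 15 of 16 genes with a median of 0.67 (11 higher and 1 lower after rescaling). Ero1l, the oxidase that recharges protein disulfide isomerase, had 179 and 174 FPKM in Cct7 KD and 48.8 and 48.5 in its control, a rise of 1.84 (SE 0.027, adjusted p = 1.2e-06 by limma), above that of any isomerase among the 36. The membrane-bound thioredoxins Tmx4 and Tmx1 rose by 1.55 and 1.39. Of the other cochaperones and proline isomerases 12 of 17 rose and 3 fell (median 0.51; 11 higher and 4 lower after rescaling), led by Fkbp14 at 2.31, Clgn at 2.04 and Dnajc25 at 1.43. Clgn encodes calmegin, a calnexin paralog known from the testis, and had 49.5 and 49.9 FPKM in Cct7 KD and 11.01 and 11.6 in its control, while Canx fell.

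Glycan trimming rose in 9 of 12 genes and fell in 1 (median 0.40; 6 higher and 4 lower after rescaling), with Uggt2, which marks misfolded glycoproteins with glucose, at 1.97, Manea at 1.23 and Mlec at 0.78. Other ERAD genes rose in 16 of 21 and fell in 1 (median 0.58; 12 higher and 4 lower after rescaling). Selenok and the ubiquitin conjugase Ube2j1 rose by 1.49 and 1.28. Other translocon, signal peptidase and oligosaccharyltransferase genes rose in 30 of 33 and fell in 2 (median 0.45; 20 higher and 5 lower after rescaling), with Tram2 at 1.61, Sec63 at 1.35 and Srp54c at 1.08. Srp54c has near-identical copies in the mouse genome, so its value is uncertain. The other membrane-bound sensors and site proteases rose in 3 of 7 and fell in 2 (median -0.10; 3 higher and 3 lower after rescaling). The 3 rises were Creb3 (1.61), Creb3l2 (1.14) and Creb3l1 (0.81), relatives of ATF6.

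**Figure D5:**
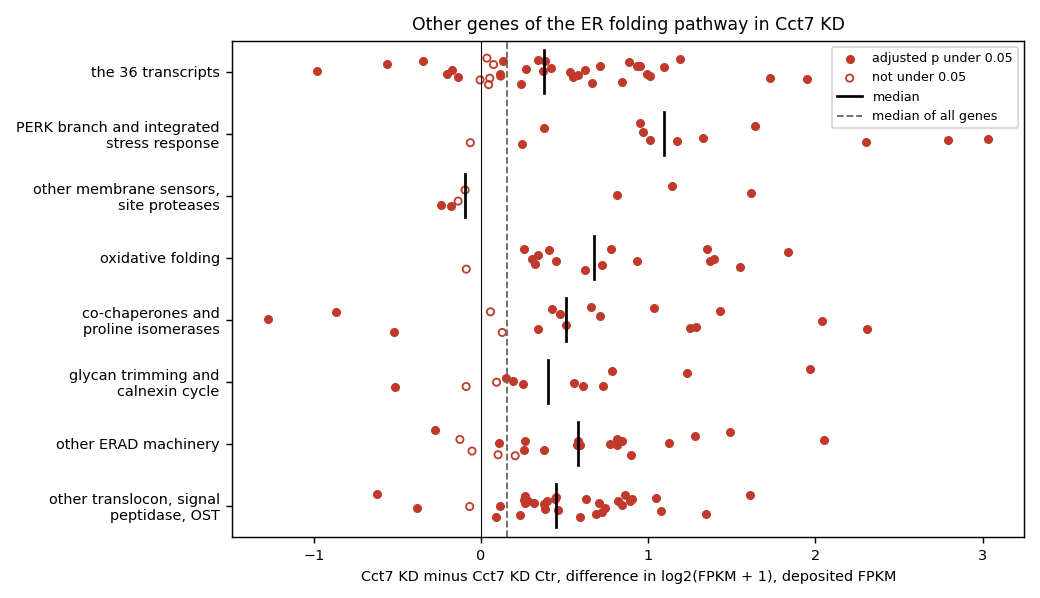
Change in Cct7 KD (Cct7 KD minus Cct7 KD Ctr in log2(FPKM + 1), deposited FPKM) of the 36 transcripts and of 7 lists of other genes of ER folding and stress. Each point is a gene, filled where the adjusted p was under 0.05; black bars are list medians (0.38 for the 36, 1.09 for the PERK branch, -0.10 for the membrane sensors) and the dashed line the median of all genes (0.15).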

How the data were processed

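Poly(A) RNA with an integrity number above 7.0 was made into libraries whose second strand was marked with dUTP and read as 150 bp pairs, per the labels' protocols. The authors deposited FPKM per gene (fragments per kilobase of transcript, relative to all fragments) in 1 table for each knockdown with its control, and named HTSeq and mm10, per the submitters' processing notes. Aligner, versions, annotation and strand setting: not given in the sources used here. In all, the tables listed 20909 (Cct7) and 21055 (Cct5) entries, and 6 and 8 IDs listed more than once were left out. Symbols came from a GENCODE annotation of GRCm38.

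No counts were at hand, so genes averaging 1 FPKM or more across the 4 libraries of a comparison were tested with limma 3.58.1 (eBayes with trend, R 4.3.3) on log2(FPKM + 1), each knockdown against its own control. Calls have a Benjamini-Hochberg adjusted p under 0.05 over all genes tested. Fold changes on this scale understate changes of low genes. Rescaling divided each library by its median of ratios to the mean of logs over genes. The remainder is Cct5 KD minus 1.125 times the Cct7 KD library of the same number, rescaled the same way; 15 genes with negative values were left out. Depth was estimated from steps of FPKM in genes with 1 annotated transcript, accepted where 95% of values gave whole fragments within 0.05; precision follows from it, and no counting interval was formed. The script was tested on simulated data.

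The 36 genes, the lists and the marker sets were chosen with earlier results of these data known. Values per library are given for Hspa5, Hsp90b1, Xbp1, Atf6 and Ern1, for the 6 largest rises and 6 largest falls called in Cct7 KD, and for genes on opposite sides of their controls in the 2 knockdowns; of each other list, the up to 3 largest changes called in Cct7 KD are named, except for an item that is not reported here. Values of further members were added after they were seen. Alternatives were a common total, median-of-ratios scaling, no filter, a pseudocount of 0.1, all 8 libraries in 1 fit, a replicate block, a fold of at least 2 and leaving out each library.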

Additional observations from a re-analysis of the deposited data

Results flagged for a closer look

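The changes of 5 genes ran opposite ways in the 2 knockdowns on deposited FPKM: both Cct5 KD libraries lay above both of their controls and both Cct7 KD libraries below both of theirs. As the Cct5 KD change minus the Cct7 KD change, the gap was 0.57 for Hyou1, 0.90 for Sdf2l1, 0.76 for Canx, 0.57 for Derl2 and 0.82 for Ssr2 (log2), and the difference was not tested, since the Cct5 KD values hold a multiple of the Cct7 KD values. The median change of all genes was 0.68 in Cct5 KD and 0.15 in Cct7 KD, and the share of all genes on opposite sides in this way was not counted. After median-of-ratios rescaling all 5 were negative in both knockdowns: Hyou1 at -0.42 in each, Sdf2l1 at -0.23 in Cct5 KD and -0.58 in Cct7 KD, Canx at -0.20 and -0.39, Derl2 at -0.45 in each, and Ssr2 at -0.56 and -0.81. In the remainder Sdf2l1 (0.34), Canx (0.34) and Ssr2 (0.25) were higher than in Cct5 KD Ctr, and Hyou1 (-0.20) and Derl2 (-0.15) lower.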

How the results depend on the processing

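In Cct7 KD the median of the 36 genes was 0.44 at a common total and 0.14 after median-of-ratios scaling, which raised the falls to 13, and a fold of at least 2 left 2734 genes and 5 of the 36. In Cct5 KD the calls among all genes were 7120 higher and 4491 lower at a common total, 5286 and 6127 after median-of-ratios scaling and 4871 and 5061 in the remainder. Among the 36 there, 4 were lower at a common total, 21 were higher and 10 lower after median-of-ratios scaling, and 6 were lower in the remainder. The Cct5 KD median was 0.37 at a common total, 0.15 after median-of-ratios scaling, 0.98 with a pseudocount of 0.1 and 0.36 in the remainder, and a fold of at least 2 left 4724 genes and 17 of the 36.

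Direction turned for the genes that follow. In Cct7 KD after median-of-ratios scaling they were Atf6 (-0.15), Hsp90b1 (-0.12), Pdia4 (-0.13), Pdia6 (-0.20), P4hb (-0.013), Edem2 (-0.21), Edem3 (-0.19) and Sec61g (-0.13). Xbp1 turned to 0.055 at a common total and ran from -0.045 to 0.034 without 1 library, and Edem2 ran from -0.032 to 0.10. In Cct5 KD at a common total they were Xbp1 (-0.0075), Hyou1 (-0.18), Sdf2l1 (-0.0013), Edem3 (-0.047), Derl2 (-0.21), Ssr2 (-0.32) and Cct7 (-0.48). After median-of-ratios scaling they were Atf6 (-0.037), Xbp1 (-0.24), Hyou1 (-0.42), Dnajb9 (-0.042), Sdf2l1 (-0.23), P4hb (-0.060), Canx (-0.20), Edem2 (-0.13), Edem3 (-0.28), Derl2 (-0.45), Sec61g (-0.035), Ssr2 (-0.56) and Cct7 (-0.72). In the remainder they were Ern1 (-0.037), Xbp1 (-0.070), Hyou1 (-0.20), Dnajb9 (-0.45), Creld2 (-0.050), P4hb (-0.20), Edem3 (-0.46), Derl2 (-0.15), Creb3l1 (-0.28) and Sec63 (-0.092); the cause was not tested.

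Without 1 library, 23 to 25 of the 36 were higher and 6 lower in Cct7 KD, and 35 higher and 1 lower in Cct5 KD. No filter, a pseudocount of 0.1 and a fit of all 8 libraries changed no call of the 36. Same-numbered libraries did not deviate together (correlations of -0.04 and -0.01 over genes, 2 pairs each), so the numbers are not shown to pair the libraries. With the replicate number as a block, 10968 genes were called in Cct7 KD against 11055 without it, and 12740 against 12662 in Cct5 KD, with no call of the 36 changed. Depth limits Derl3 most.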

Other observations

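The ERSE and ERSE-II letters also occur in start-site windows of genes that are not among the 36, and these did not share a direction. Of 28 other genes with an ERSE, 12 were tested in Cct7 KD, of which 5 rose, 6 fell and 1 did not pass the test, with a median of 0.07 against 0.15 for all genes (4 higher and 6 lower after rescaling). For these and the genes with ERSE-II, the shares of all genes were 49.3% higher and 32.0% lower as deposited, and 37.1% and 44.0% after rescaling. Alg12, a mannosyltransferase of the ER, rose by 0.64 (SE 0.082, adjusted p = 8.0e-04 by limma) and Calr4, a calreticulin paralog, by 0.84 (SE 0.059, adjusted p = 6.9e-05). Zfp57, a zinc finger gene that keeps imprints, fell by 1.16 (SE 0.032, adjusted p = 3.9e-06). The Xlr3 genes, near-identical copies whose values are uncertain, stood at -2.04 (Xlr3a), -0.88 (Xlr3b) and 0.36 (Xlr3c). Of 8 other genes with ERSE-II that were tested, 3 rose and 5 fell. With Herpud1 and Dnajb11 counted, 4 of 10 were higher and 5 lower after rescaling. Nucb1, which encodes a calcium-binding protein of the secretory route, rose by 1.50 (SE 0.040, adjusted p = 3.6e-06) and Lrif1 by 2.13 (SE 0.039, adjusted p = 1.6e-06), while Krtcap2, an oligosaccharyltransferase subunit, was at 0.26 and turned to 0.02 after rescaling. The falls were largest for the predicted gene Gm32885 at -1.53, and Gm46430 was at -0.27. Of the other falls Rbm39, a splicing factor gene, was at -0.11, Rcl1 at -0.26 and Lgalsl at -0.28. These genes were named after their values were seen.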
